A study of Homo sapiens with 6 samples.

Results

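LAPC4-CR was set beside LAPC4, the line whose name it carries, one of 3 such pairs of a castration-resistant and a castration-sensitive human prostate cancer cell line. The comparison used the 2 libraries of this pair out of 6 in the series. Per the labels, LAPC4 was grown in RPMI with 10% fetal bovine serum and is castration sensitive. LAPC4-CR was grown in RPMI with 10% charcoal-stripped serum, which is depleted of steroids, and B27 supplement, and is castration resistant. Medium and state thus differed together and cannot be told apart. No other treatment, allele or clone is given for either line, and total RNA of each line gave 1 library, prepared by the SOLiD Total RNA-Seq method. The tables list 51698 genes, of which 19959 are protein-coding by their class, and 10833 of these reached a mean of 1 scaled FPKM over both libraries and are described. Scaled FPKM is the deposited reads per gene length and library total, with the LAPC4-CR values divided by 1.03 so that the middle protein-coding gene has a ratio of 1.

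Androgen switches on genes such as the kallikreins and TMPRSS2 in the secretory (luminal) cells of the prostate. Castration therapy removes the hormone, and cells that go on growing are called castration resistant. HOXB13 and FOXA1 are transcription factors of the prostate luminal lineage, and CREBBP and EP300 are coactivators that steroid receptors recruit.

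With 1 library a side there was no replicate check and no p-value. Each ratio therefore has an exact 95% Clopper-Pearson interval, which covers counting error only. A gene was called higher or lower where this whole interval lay beyond 2-fold. LAPC4 had 12393880 counts and LAPC4-CR 22433655, and the share in protein-coding genes was 68.3% and 79.5%. The 8 MTRNR2L genes, near copies of a mitochondrial ribosomal RNA, held 7.78% of the protein-coding counts in LAPC4 and 12.3% in LAPC4-CR. Epithelial markers were present in both libraries. EPCAM was at 98.2 scaled FPKM in LAPC4 and 113 in LAPC4-CR, KRT8 at 66.7 and 101, KRT18 at 50.9 and 79.5, and FOXA1 at 142 and 115. All 17 luminal markers were described, 0 of 10 fibroblast and 0 of 9 leukocyte markers were, and of 7 endothelial markers only KDR was. The fibroblast markers summed to 3.24 and 4.0 scaled FPKM and the leukocyte markers to 2.91 and 2.38.

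Of the 10833 genes, 841 were called higher in LAPC4-CR (7.76%) and 590 lower (5.45%), and the median log2 ratio of all was 0.10. Over the same genes the LNCaP pair had 5.04% called higher and 3.9% lower, and the VCaP pair 1.81% and 1.24%. The split of the calls moved with the scaling: 58.8% of them were higher here, and 44.4% when libraries were scaled by their summed protein-coding counts, with 600 higher and 751 lower. Beyond 16-fold with the whole interval lay 17 higher and 33 lower genes. A second count took genes called in the LAPC4 pair whose intervals in the LNCaP and the VCaP pair both stayed short of 2-fold in that direction. It held 421 higher genes (3.89%) and 254 lower (2.34%). It describes counting error in single libraries, and the difference between the pairs was not tested. In the lists below, a member under 1 scaled FPKM in one library passed the level minimum only through the other. Counts and medians over described members are partly fixed by that and support nothing by themselves.

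**Figure D1:**
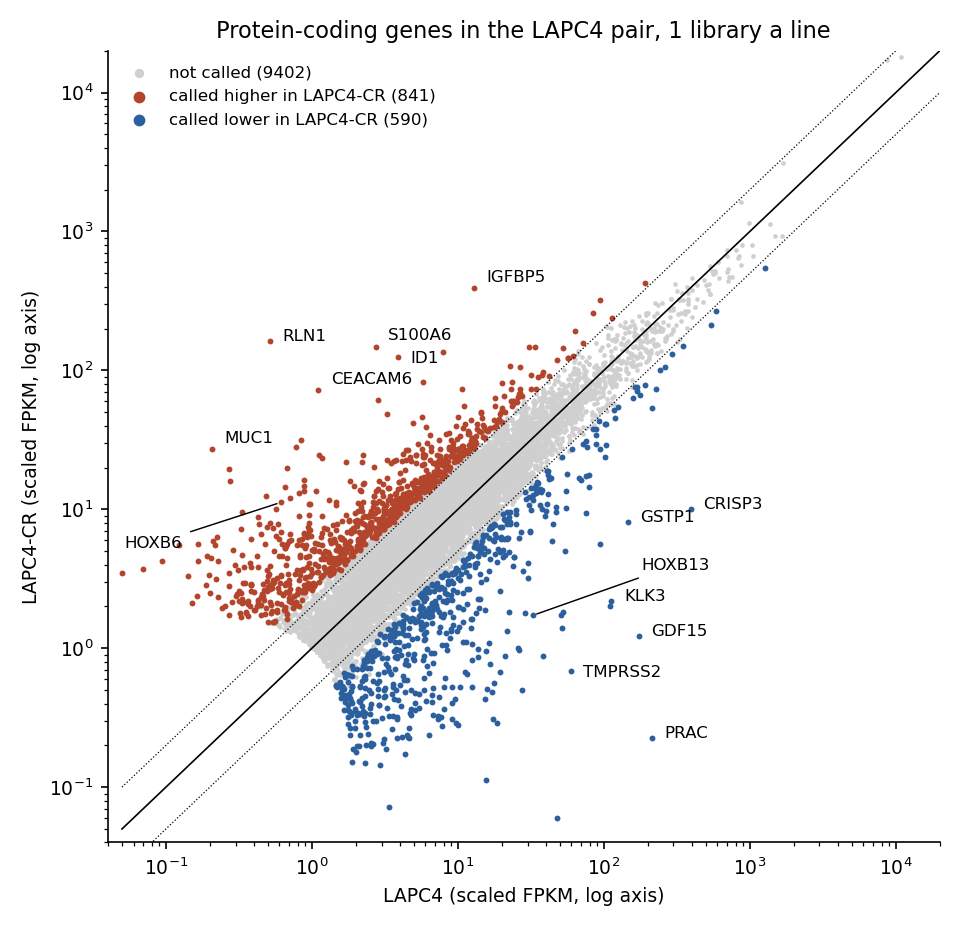
Level of each described protein-coding gene in LAPC4 (horizontal) and LAPC4-CR (vertical), in scaled FPKM on log axes, with values under 0.05 drawn at 0.05. Red points are the 841 genes called higher in LAPC4-CR, blue points the 590 called lower and grey points the rest, the solid line marks equal levels and the dotted lines 2-fold, and RLN1 and PRAC lie farthest from the line among the genes labelled.

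Androgen-regulated genes were lower in LAPC4-CR. Of 48 listed androgen response genes 41 were described, 23 were called lower and 0 higher, and their median log2 ratio was -1.41. Of the 23, 9 were under 1 scaled FPKM in LAPC4-CR. KLK3, which encodes prostate-specific antigen, stood at 113 scaled FPKM in LAPC4 and 2.17 in LAPC4-CR, 51.9-fold lower (43.0 to 63.4). KLK2, its neighbour in the kallikrein cluster, stood at 51.5 and 1.39. TMPRSS2, a membrane serine protease, was 86.2-fold lower (70.5 to 107), at 59.3 and 0.687. ABCC4, a transporter of organic anions, stood at 16.6 and 0.768, and SPON2, a secreted matrix protein outside this list, at 19.4 and 0.670. FKBP5, a chaperone partner of steroid receptors, was lower by a smaller factor, 3.21-fold (2.87 to 3.59). The list median was -1.54 in the LNCaP pair and -0.31 in the VCaP pair, where 23 and 7 members were called lower. TMPRSS2 had log2 ratios of -6.43 in the LAPC4 pair, -1.96 in the LNCaP pair and 0.47 in the VCaP pair.

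The sequences just before the starts of KLK3 and KLK2 are shown because both genes were among those lower in LAPC4-CR and carry the same androgen-response motif there. They are the 250 bases before the RefSeq start in build GRCh38.p14, 5′ to 3′ on the plus strand of chromosome 19, at chr19:50854665-50854914 for KLK3 and chr19:50873189-50873438 for KLK2. Capitals mark matches to GAACANNNNGTNCT, a spaced pair of androgen-response half-sites, searched on both strands.
KLK3: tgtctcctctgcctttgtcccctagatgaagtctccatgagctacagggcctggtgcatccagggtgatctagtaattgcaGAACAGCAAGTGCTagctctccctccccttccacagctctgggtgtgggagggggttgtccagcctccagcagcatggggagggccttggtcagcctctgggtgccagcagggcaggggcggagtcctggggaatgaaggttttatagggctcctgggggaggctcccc
KLK2: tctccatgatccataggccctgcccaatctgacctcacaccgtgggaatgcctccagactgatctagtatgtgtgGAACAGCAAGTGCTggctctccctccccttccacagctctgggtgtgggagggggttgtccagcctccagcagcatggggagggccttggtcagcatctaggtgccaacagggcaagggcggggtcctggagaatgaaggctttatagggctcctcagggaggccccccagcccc
Each window holds the motif 1 time, with the same 14 bases in both, and it begins 169 bases before the start in KLK3 and 175 in KLK2. Aligned end to end the windows are 77.7% identical. Of 35116 such windows in the RefSeq table, 76 hold the motif (0.216%). Of the 17 androgen response genes called lower that have a window there, KLK2 and KLK3 are the 2 with a match. A match is a run of letters and not evidence of binding in these lines.

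Some steroid receptor coregulators were higher, and some targets of the glucocorticoid receptor were lower. Among 15 described receptors and coregulators 4 were called higher, among them EP300, CREBBP and the steroid receptor chaperone HSP90AA1, and 1 lower, HOXB13. The list median was 0.79, against 0.34 in the LNCaP pair and 0.14 in the VCaP pair. EP300 was at 2.15 scaled FPKM in LAPC4 and 8.30 in LAPC4-CR, and CREBBP at 2.30 and 6.62. HSP90AA1 was 2.10-fold higher (2.05 to 2.16), and under the scaling by summed protein-coding counts its log2 ratio was 0.89. Of 14 glucocorticoid response genes 7 were called lower and S100P higher, with a median of -1.18. The median was 0.0197 over the members averaging 5 scaled FPKM or more, and the S100P call was lost under the scaling by summed protein-coding counts and on thinning LAPC4-CR. KLF9, a Krüppel-like repressor, was at 25.8 and 1.01 scaled FPKM, and ZBTB16, a zinc-finger repressor, at 4.12 and 0.231. The glucocorticoid receptor gene NR3C1 was below the level minimum, with 89 counts in LAPC4 and 73 in LAPC4-CR (0.783 and 0.345 scaled FPKM). It was picked after its value was seen, and had a log2 ratio of -1.18 (-1.65 to -0.72) here and 3.68 in the LNCaP pair.

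The HOXB locus on chromosome 17 was lower at its HOXB13 end and higher at HOXB2 to HOXB9. HOX genes encode homeobox factors that set position along the body, and the prostate expresses the last gene of this cluster, HOXB13. HOXB13 (ENSG00000159184, chromosome 17, 44157124 to 44161539 in the tables' coordinates; hg18 is the build named in the submitters' processing notes) was at 32.6 scaled FPKM in LAPC4 and 1.72 in LAPC4-CR, 18.9-fold lower (15.9 to 22.7). Its log2 ratio was -4.24, against 0.10 in the LNCaP pair and -0.26 in the VCaP pair. PRAC, a small nuclear protein gene between HOXB13 and HOXB9, had 1007 counts in LAPC4 and 2 in LAPC4-CR, a ratio of 938 (259 to 7753). PRAC was also lower in LNCaP-abl, with a log2 ratio of -3.73 (-4.05 to -3.42), and stood at 0.53 in the VCaP pair. HOXB13-AS1, a noncoding transcript that the tables place between PRAC and HOXB13, had 470 and 7 counts. It ends inside the HOXB13 locus, and whether counting used strand is not given, so reads of these neighbours cannot be fully told apart. HOXB9 was at 0.209 and 5.96 scaled FPKM (7 and 372 counts), 28.5-fold higher (13.7 to 71.5). HOXB6 was at 0.613 and 11.2, HOXB7 at 0.582 and 7.79 and HOXB8 at 0.704 and 6.68. HOXB3, HOXB4 and HOXB5 had log2 ratios of 3.15, 3.17 and 2.73. By their coordinates HOXB8 and HOXB9 lie inside the HOXB7 locus, and HOXB4 lies inside the HOXB3 locus. Reads of these overlapping genes likewise cannot be fully told apart. HOXB2, just under the level minimum with 7 and 117 counts, had 3.17 (2.08 to 4.51). In LNCaP-abl the ratios of these 8 genes ran from -3.17 for HOXB6 to 0.39 for HOXB7. In the VCaP pair they lay within -0.67 and 0.17, apart from HOXB4 at 3.33 on 1 and 16 counts. TTLL6, the next gene shown beyond HOXB13, was under the level minimum with 54 and 24 counts. It had log2 ratios of -2.07 (-2.83 to -1.35) here, -1.79 in the LNCaP pair and -1.51 in the VCaP pair. CALCOCO2, farther on, was at 8.59 and 8.66 scaled FPKM. The single genes of the locus outside HOXB6, HOXB7, HOXB9, HOXB13 and PRAC were picked after their values were seen. Of all 40 listed HOX and PRAC genes 17 were described, 9 called higher and 2 lower. Of the 9, 7 were under 1 scaled FPKM in LAPC4.

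**Figure D2:**
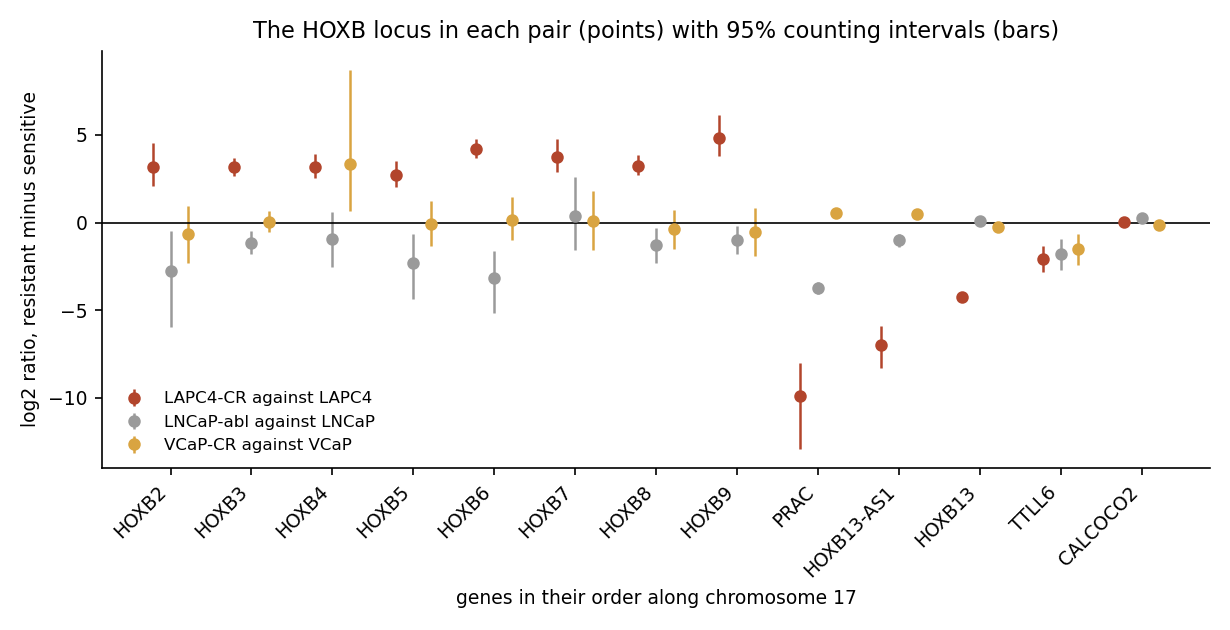
Log2 ratio (resistant minus sensitive, vertical) of genes of the HOXB locus in their order along chromosome 17, with 95% counting intervals as bars, for the LAPC4 (red), LNCaP (grey) and VCaP (yellow) pairs. In the LAPC4 pair HOXB2 to HOXB9 lie between 2.73 and 4.83, while PRAC, HOXB13-AS1 and HOXB13 lie at -9.87, -6.97 and -4.24.

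A few surface and secreted proteins of mucosal epithelium were higher in LAPC4-CR. Of 28 listed mucosal and club-cell genes 6 were called higher and 0 lower, and 8 were described, 4 of them through LAPC4-CR alone. MUC1, a membrane mucin, went from 7 to 1719 counts, or 0.206 to 27.2 scaled FPKM, 132-fold higher (63.9 to 328). CEACAM6, a glycosylphosphatidylinositol-anchored adhesion protein, was at 1.11 and 72.0 scaled FPKM, and CEACAM5, a close relative, at 0.429 and 8.83. PSCA, prostate stem cell antigen, was already at 31.7 in LAPC4 and stood at 92.6 in LAPC4-CR. SLPI, a secreted protease inhibitor, and KRT7, a simple-epithelium keratin, completed the 6, at log2 ratios of 4.01 and 1.70. These 2 were picked after their values were seen. Most of the list was at low levels, with 19 of its 28 genes under 1 scaled FPKM in both libraries. Among these were the secretory markers SCGB1A1 (2 and 0 counts), SCGB3A1 (3 and 5 counts), LCN2 (11 and 12 counts) and PIGR (24 and 28 counts), picked after their values were seen. CEACAM6 had a log2 ratio of -3.50 in the LNCaP pair and 0.17 in the VCaP pair, each on few counts. MUCL1, a small secreted mucin-like protein, was at 0.775 and 28.2 scaled FPKM and was among the called genes not 2-fold higher in either other pair.

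S100 proteins are small calcium-binding proteins, and annexins bind membranes in the presence of calcium. Of 31 listed, 14 were described, 7 called higher and 0 lower (median 1.29, against 0.36 in the LNCaP pair and 0.04 in the VCaP pair). S100A6 was at 2.74 scaled FPKM in LAPC4 and 148 in LAPC4-CR, 54.1-fold higher (38.4 to 78.7). Its ratios in the LNCaP and VCaP pairs were -0.41 and -0.01, with intervals that include 0. S100A16 was at 1.07 and 13.6 scaled FPKM, and S100A10, the partner of annexin A2, at 1.93 and 14.6. S100A16 was also higher in VCaP-CR, by a log2 ratio of 2.43 (1.66 to 3.31), and S100A10 in LNCaP-abl, by 3.78. S100A11 was the most abundant member, at 243 and 204 scaled FPKM, and was not called.

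RLN1 was the gene called higher whose interval lay farthest from equal. It (ENSG00000107018, chromosome 9, 5324969 to 5329873 in the tables' coordinates) encodes relaxin 1, a secreted peptide hormone of the insulin family, and its near copy RLN2 lies beside it on chromosome 9. RLN1 had 7 counts in LAPC4 and 4111 in LAPC4-CR, or 0.519 and 164 scaled FPKM, 315-fold higher (153 to 785). RLN2 had 3 and 4 counts, with a log2 ratio of -0.48 (-3.05 to 2.29). How reads matching both copies were assigned is not given in the sources used here. The 250 bases before each start are shown because these near copies gave unlike counts. They are RefSeq sequences of build GRCh38.p14, 5′ to 3′ on the minus strand, at chr9:5339877-5340126 for RLN1 and at chr9:5304717-5304966 for the first of the RLN2 starts listed. No capitals are used, since neither holds the motif searched for above.
RLN1: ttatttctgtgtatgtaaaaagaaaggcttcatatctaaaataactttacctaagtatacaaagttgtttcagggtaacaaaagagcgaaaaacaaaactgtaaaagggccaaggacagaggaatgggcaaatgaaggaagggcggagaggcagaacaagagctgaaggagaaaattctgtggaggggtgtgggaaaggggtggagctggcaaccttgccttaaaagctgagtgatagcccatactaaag
RLN2: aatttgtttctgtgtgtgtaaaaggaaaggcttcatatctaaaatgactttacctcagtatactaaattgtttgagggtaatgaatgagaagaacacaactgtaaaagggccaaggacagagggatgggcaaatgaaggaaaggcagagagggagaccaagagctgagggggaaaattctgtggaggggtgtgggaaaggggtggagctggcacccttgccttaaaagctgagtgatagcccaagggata
End to end the windows align with 221 identical bases over 253 columns, an identity of 87.4%. RLN1 had log2 ratios of -1.49 in the LNCaP pair and 0.65 in the VCaP pair.

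Of 26 listed relaxin and insulin-like peptide genes, with their receptors and binding proteins, 9 were described. RLN1, IGFBP5 and IGFBP3 were called higher and RXFP4, a relaxin-family receptor gene on 66 and 6 counts, lower, with a median of 0.23. The median changed sign, to -0.09, with the trend by gene length removed (described below), and 2 genes were then called lower. IGFBP5, which binds insulin-like growth factors outside the cell, rested on 1032 and 58035 counts. It was at 12.9 and 390 scaled FPKM, 30.2-fold higher (28.4 to 32.1), against log2 ratios of 0.41 and 0.75 in the LNCaP and VCaP pairs. IGFBP3 was at 3.27 and 48.6 scaled FPKM, with a log2 ratio of 3.89 here, 6.63 in the LNCaP pair and -0.11 in the VCaP pair. Of 29 described TGF-beta and BMP pathway genes 9 were called higher and 3 lower, with a median of 0.43. ID1, ID2 and ID3 encode inhibitors of basic helix-loop-helix factors and are targets of BMP signalling. ID1 was at 3.86 and 125 scaled FPKM, ID2 at 5.78 and 82.4, and ID3 at 7.86 and 136. All 3 were also higher in LNCaP-abl, by log2 ratios of 4.61, 1.95 and 2.47, and stood at -0.55, -0.15 and -0.77 in the VCaP pair. The ligand gene BMP2, picked after its value was seen, was at 0.923 and 6.37. The type 2 TGF-beta receptor gene TGFBR2 was 5.48-fold lower (4.37 to 6.91), at 4.98 and 0.909. GDF15, a divergent member of the family, was at 174 and 1.23 scaled FPKM. Its log2 ratio was -7.15 here, -4.54 in the LNCaP pair and -4.64 in the VCaP pair.

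A minority of replication and mitosis genes were called higher in LAPC4-CR, and 79 of 95 were not called. Of 42 S phase genes all were described, 7 called higher and 0 lower, and 35 had a ratio above 1, as did 56.0% of all described genes. Their median log2 ratio was 0.61, against -0.49 in the LNCaP pair and -0.27 in the VCaP pair. Of 53 G2/M genes 9 were called higher and 0 lower, with medians of 0.36, -0.52 and -0.14. None of these 16 genes was 2-fold higher in either other pair. MKI67, the Ki-67 proliferation antigen, was at 4.18 scaled FPKM in LAPC4 and 25.0 in LAPC4-CR, 5.99-fold higher (5.53 to 6.50), with log2 ratios of -1.14 and 0.71 in the LNCaP and VCaP pairs. CENPF, a kinetochore protein, was at 6.42 and 34.3. RRM2, the small subunit of ribonucleotide reductase, was at 5.83 and 23.7, E2F2, an S phase transcription factor, at 1.61 and 8.29, and CLSPN, a replication checkpoint adaptor, at 0.95 and 4.64. Abundant genes differed: PCNA, the replication clamp, stood at 122 and 167 scaled FPKM, and BIRC5, survivin, at 40.3 and 46.2, and neither was called. PBK, a mitotic kinase with a higher mean level than BIRC5, was called higher, at 38.6 and 97.9, 2.54-fold (2.37 to 2.72). MYC, outside these lists and picked after its value was seen, was lower, at 36.6 and 13.9.

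Gene length moved with the ratio over all genes, and its part in the results was not tested. In 10 groups of equal size the median log2 ratio went from -0.10 in the shortest genes (median length 1274 nucleotides, 41 called higher and 68 lower) to 0.41 in the longest (10964 nucleotides, 180 higher and 57 lower). The same groups went from -0.14 to 0.21 in the LNCaP pair and from -0.17 to 0.31 in the VCaP pair. With each length group's median taken out, 7 S phase and 8 G2/M genes were called higher, with medians of 0.64 and 0.38. Of the 7 and 9 called without this step, 6 and 7 were still called. MKI67 then had a log2 ratio of 2.27, CENPF 2.10, EP300 1.64 and CREBBP 1.21.

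**Figure D3:**
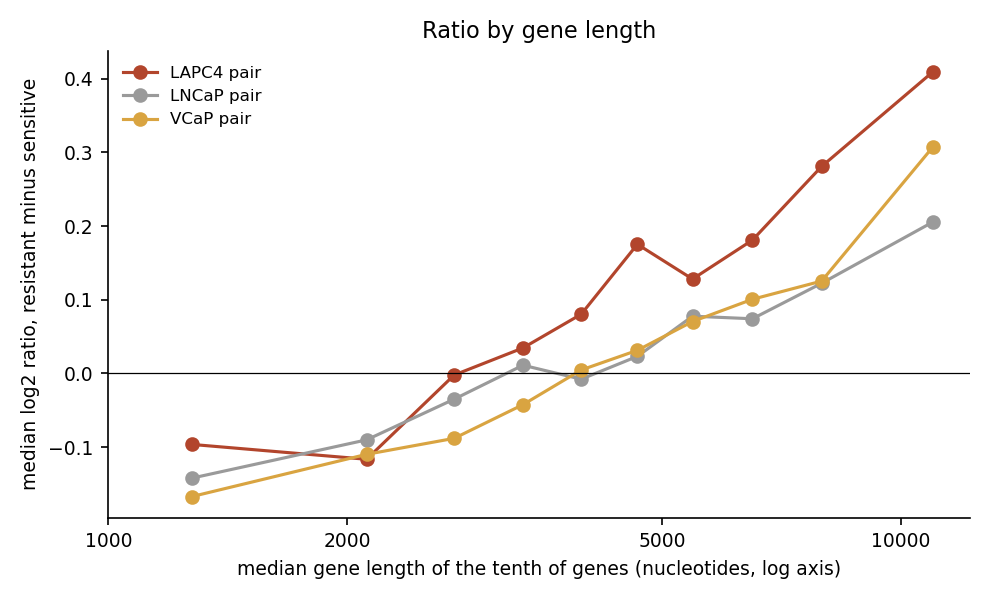
Median log2 ratio (vertical) of described genes in 10 groups of equal size by gene length (horizontal, nucleotides, log axis), for the LAPC4 (red), LNCaP (grey) and VCaP (yellow) pairs. The LAPC4 line runs from -0.10 in the shortest group to 0.41 in the longest.

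Amino acid stress genes were lower in LAPC4-CR. ATF4 is a transcription factor that is translated when amino acids run short or unfolded proteins collect in the endoplasmic reticulum, and it switches on transporters and stress factors. Of 32 listed ATF4 and unfolded protein response genes all were described, 13 were called lower and 0 higher, with a median log2 ratio of -0.91. Of the 13, 9 were not 2-fold lower in either other pair. The list medians were -0.23 in the LNCaP pair and 0.49 in the VCaP pair, where 7 members were called higher and 2 lower. CHAC1, which breaks down glutathione, was at 10.0 scaled FPKM in LAPC4 and 1.97 in LAPC4-CR, with log2 ratios of -2.35 here, 0.58 in the LNCaP pair and 1.28 in the VCaP pair. NUPR1, a stress-induced nuclear protein, was at 213 and 54.0, and SLC7A11, the cystine transporter, at 13.5 and 4.12. ATF4 itself was at 294 and 132 and DDIT3, the CHOP factor, at 40.9 and 11, both picked after their values were seen. ATF4 was 2.23-fold lower (2.17 to 2.30). CALR, calreticulin, was at 980 and 1159 scaled FPKM and PDIA4, a disulfide isomerase, at 224 and 305, and neither was called. Under the other scalings 10 to 16 members were called lower.

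**Figure D4:**
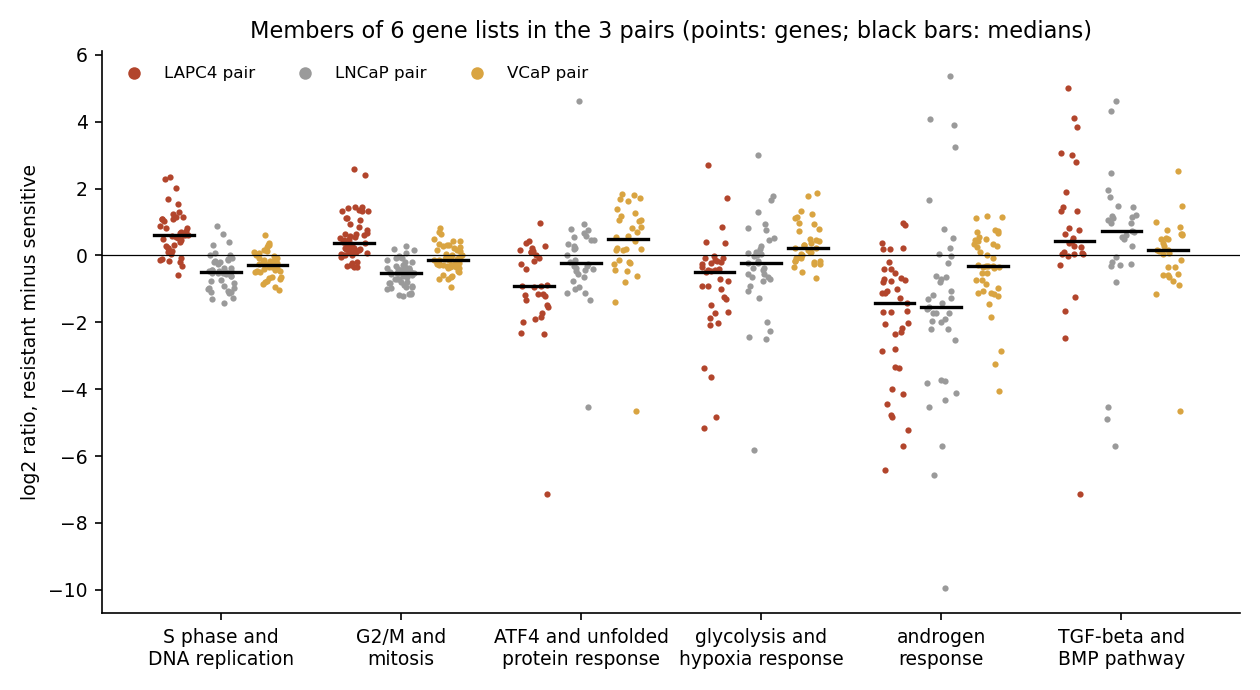
Log2 ratio (resistant minus sensitive, vertical) of each described member of 6 gene lists in the LAPC4 (red), LNCaP (grey) and VCaP (yellow) pairs, with medians as black bars. The S phase medians are 0.61, -0.49 and -0.27 in that order, and the ATF4 list medians are -0.91, -0.23 and 0.49.

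Glycolysis and hypoxia genes were lower as well. Of 36 described 12 were called lower and 2 higher, with a median of -0.49 against -0.24 in the LNCaP pair and 0.23 in the VCaP pair. Of the 12, 5 were under 1 scaled FPKM in LAPC4-CR. SLC16A3, the lactate exporter MCT4, was 35.5-fold lower (23.6 to 56.0), at 17.2 and 0.485 scaled FPKM. ANGPTL4, a lipoprotein lipase inhibitor, was at 52.1 and 1.82, and ADM, adrenomedullin, at 11.4 and 1.10. HK1, the first enzyme of glycolysis, was higher, at 4.50 and 14.7, and GAPDH was at 826 and 647 and not called. Among 31 antioxidant genes 6 were called lower and GSR, glutathione reductase, higher, at 93.5 and 324 scaled FPKM. GSTP1, a glutathione transferase, was 18.0-fold lower (16.1 to 20.1), at 145 and 8.08. FTH1, the ferritin heavy chain, was at 17.9 and 4.74, but it has near-identical processed copies, so its count is uncertain. The median of the antioxidant list was -0.01 and changed sign with the scaling, from -0.19 to 0.12.

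Some secreted and surface proteins of prostate tissue were lower. Of 37 listed CRISP and secretory genes 14 were described, 8 called lower and 3 higher. Of the 8, 4 were under 1 scaled FPKM in LAPC4-CR. The median was -2.52, against -0.41 and -0.34 in the LNCaP and VCaP pairs. CRISP3, a cysteine-rich secretory protein, was the most abundant, at 394 and 10.1 scaled FPKM, with log2 ratios of -5.29 here, -1.55 in the LNCaP pair and -4.72 in the VCaP pair. MME, the peptidase neprilysin, was at 11.5 and 0.657, with 0.01 in the LNCaP pair and 0.36 in the VCaP pair. CLU, clusterin, was higher, at 4.95 and 41.8, as it was in the LNCaP and VCaP pairs (log2 ratios of 3.08, 4.59 and 1.41). UGT2B11 and UGT2B28, which attach glucuronic acid to steroids, were at 44.4 and 5.92 and at 16.5 and 1.09 scaled FPKM. They belong to a family of near copies, so the split of reads between them is uncertain.

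Adhesion and lineage markers were mixed. For comparison, 7.76% of all described genes were called higher and 5.45% lower. Among 29 junction genes 5 were called higher and 3 lower. CTNNA1, alpha-catenin, was at 8.35 and 35.0 scaled FPKM, and the desmosome genes DSC2 and DSP at 26.5 and 105 and at 8.67 and 35.1. GJA1, connexin 43, was 29.5-fold lower (19.2 to 47.8), at 9.13 and 0.309. Integrins and laminins had 4 of 18 described called higher and 0 lower, led by ITGB6 at 0.229 and 2.35. Of the 4, 2 were under 1 scaled FPKM in LAPC4, ITGB6 among them. Of 20 basal markers 7 were described, with KRT14, KRT15 and ITGA6 called higher and NGFR lower. KRT14, on 10 and 94 counts, and KRT15 were under 1 scaled FPKM in LAPC4. KRT19, a keratin of simple epithelium, was 4.34-fold higher (4.05 to 4.65), at 33.9 and 147. Of 20 neuroendocrine markers 4 were described. SOX2, a neural lineage factor, was at 0.322 and 1.78, whereas NCAM1, an adhesion molecule, and ENO2, neuronal enolase, were lower, at 1.98 and 0.363 and at 3.93 and 0.972. The other 16 were under 1 scaled FPKM in both libraries. FN1, fibronectin, and TWIST1, a mesenchymal factor, were called lower among 5 described transition genes. With the length trend removed TWIST1 was no longer called, and 1 of the list was lower there and on thinning. VIM, vimentin, was at 0.780 and 1.19. In bulk RNA, fewer cells of a type and less RNA per cell cannot be told apart.

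Smaller groups had single genes far from equal. Beside the list counts here stand 7.76% called higher and 5.45% lower over all described genes. In the interferon list OAS1 and OAS3, enzymes that sense double-stranded RNA, were at 0.887 and 16.2 and at 0.567 and 6.39 scaled FPKM, ISG20 was 7.91-fold lower (5.83 to 10.9), and the other 13 described members were not called. Of 33 sterol and fatty acid synthesis genes 4 were called higher and ELOVL5 lower. ELOVL6, a fatty acid elongase, was at 10.6 and 73.4. In the LNCaP pair ELOVL6 and ELOVL5 were called the same ways, at log2 ratios of 2.04 and -1.36. They stood at -0.11 and 0.24 in the VCaP pair. Of 24 p53 targets 5 were called higher, among them BTG2, GADD45A and MDM2 at log2 ratios of 2.94, 2.0 and 1.68, and GDF15 and SESN2 were lower. In the WNT list 3 of 21 described were called higher and 6 lower. Of the 3, 2 were under 1 scaled FPKM in LAPC4, and of the 6, 3 were in LAPC4-CR. WNT5A, a ligand of the branch that works without beta-catenin, was at 6.16 and 29.9, and its receptor gene ROR1 at 3.08 and 0.209. Among 18 described ERBB and growth factor receptor genes 4 were called higher and 2 lower. EGFR was 6.37-fold lower (5.73 to 7.11), at 9.32 and 1.46, and ERBB4 higher, at 1.22 and 5.02. EGFR was also lower in LNCaP-abl, at a log2 ratio of -2.71 (-2.99 to -2.44), and stood at 0.87 in the VCaP pair. In the cAMP list 6 of 23 described were called higher and 5 lower. Of the 6, 3 were under 1 scaled FPKM in LAPC4, and of the 5, 3 were in LAPC4-CR. ADCY8, an adenylyl cyclase, had log2 ratios of 3.01 here and -8.71 in the LNCaP pair. The drug efflux pump gene ABCG2 was at 0.549 and 5.05.

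**Figure D5:**
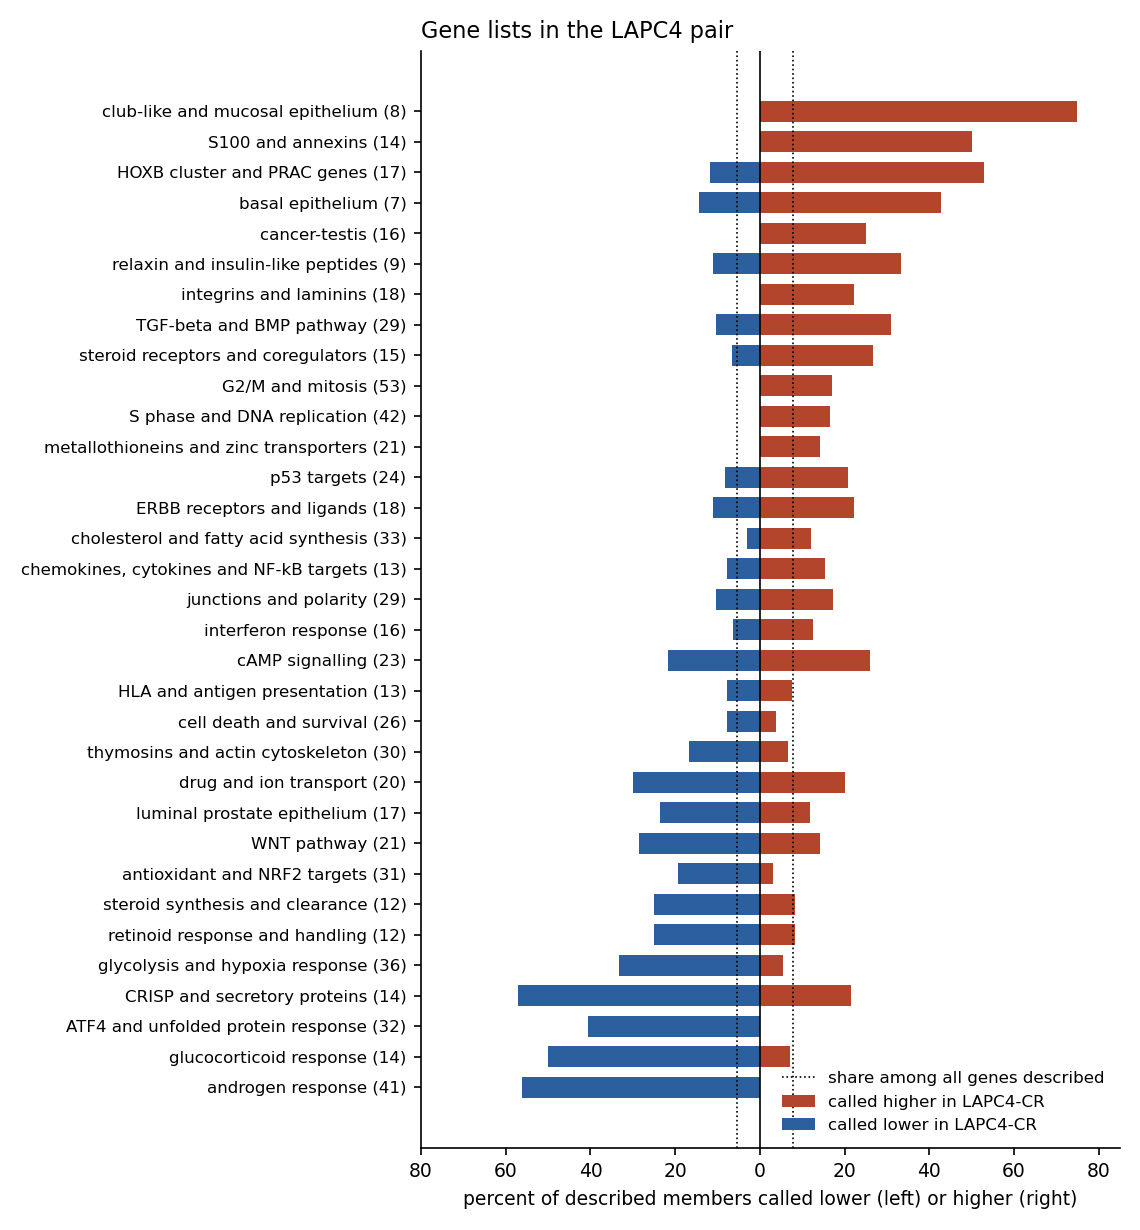
Share of the described members of each gene list called higher (red, right) or lower (blue, left) in LAPC4-CR, in percent, with the number described in parentheses and the share among all described genes as dotted lines; lists with fewer than 7 described members are left out. Shares of lists with members that passed the level minimum through 1 library are partly fixed by that. The mucosal list has 6 of 8 described members (of 28 listed) on the right, and the androgen response list has 23 of 41 members on the left and 0 on the right.

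Among the called genes not past 2-fold in the same direction in either other pair, the 10 farthest each way were taken. The higher ones, with MUCL1 and HOXB9 above, were ARMCX3, ATP8A2, SLC7A2, TUB, PDLIM1, CHST1, FERMT1 and GRIN2A. ARMCX3, a protein of the mitochondrial outer membrane, was at 0.846 and 31.3 scaled FPKM, 37.0-fold higher (27.2 to 51.7), with log2 ratios of 0.07 and 0.17 in the LNCaP and VCaP pairs. SLC7A2, a transporter of cationic amino acids, was at 2.84 and 61.3, with 0.40 and 0.02. PDLIM1, an actin-bound adaptor, was at 1.12 and 24.4, and FERMT1, kindlin 1, which activates integrins, at 0.437 and 7.85. The lower ones, with HOXB13 and MME above, were AMOTL1, ASRGL1, SLC44A4, SDC2, FLRT3, CKB, ARMC2 and NFIB. CKB, brain-type creatine kinase, was at 94.7 and 5.63 scaled FPKM, 16.8-fold lower (15.0 to 18.8), with 0.90 and 0.77 in the other pairs. NFIB, a nuclear factor of the NFI family, was at 13.6 and 0.981. AMOTL1, an angiomotin of tight junctions, was at 9.70 and 0.289, and its log2 ratio in the LNCaP pair was 5.94. SDC2, a syndecan, was at 12.4 and 0.526, with 0.27 and 2.15. Farther still from equal, but with an interval past 2-fold or too wide in another pair, were SEMA6B, a semaphorin, at 18.6 and 0.291, and CA4, a carbonic anhydrase, on 221 and 3 counts with a ratio of 137 (46.3 to 670). KIF5C, a kinesin, was at 17.3 and 0.308, with log2 ratios of -1.54 in the LNCaP pair and 0.18 in the VCaP pair. LRRN1, a leucine-rich repeat membrane protein, was at 110 and 2.02, with 4.47 in the LNCaP pair and -1.90 in the VCaP pair. The gene listed as AC217771.1 had 1301 and 3 counts, a ratio of 808 (276 to 3921). Among the genes called higher, EPB41L3, a protein that ties membranes to the cytoskeleton, was at 0.271 and 19.4 scaled FPKM. RAB27B, a GTPase of secretory vesicles, was at 0.277 and 16, and B3GALT5, a galactosyltransferase, at 0.675 and 19.7. In the VCaP pair B3GALT5 was called higher too, at a log2 ratio of 2.60, and EPB41L3 stood at 1.67 (0.86 to 2.57). RAB27B was called higher in the LNCaP pair, at 1.32 (1.02 to 1.62), and stood at 0.84 in the VCaP pair.

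Of the 841 genes called higher, 96 (11.4%) were also called higher in the LNCaP pair, against 5.04% of all described genes, and 71 (8.44%) in the VCaP pair, against 1.81%. In those pairs 37 (4.40%) and 14 (1.66%) of them were called lower, against 3.9% and 1.24%. Of the 590 called lower, 100 (16.9%) were also called lower in the LNCaP pair and 36 (6.10%) in the VCaP pair, and 50 (8.47%) and 28 (4.75%) were called higher there. These overlaps were not tested. In all 3 pairs 13 genes were called higher, among them BAMBI, CLU, IQGAP1 and WNT5A, and 11 lower, among them KLK3, GDF15, PMEPA1, PTGER4 and TRPM8.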

How the data were processed

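RNA of LAPC4 and LAPC4-CR was compared, with the LNCaP and VCaP pairs beside it. Per the file headers, the authors deposited a count per gene and an FPKM value, a level per gene length and library total, for each library. The FPKM was rebuilt within 0.03% from the deposited count, gene length and total for genes over 50 counts, with the LAPC4 lengths for LAPC4-CR. The submitters' processing notes name HTSeq and hg18, without a role. For the aligner, the annotation and the strand setting, the sources used here give nothing. FPKM falls when a few RNAs take more of a library.

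Counts were scaled in each pair by the median ratio over protein-coding genes with at least 20 counts in both libraries (13405 genes and a ratio of 1.86 in the LAPC4 pair). Genes averaging 1 scaled FPKM or more were described. Exact 95% intervals came from SciPy 1.17.1, and their computation was tried on simulated Poisson counts. Such counts hold counting error only, so this does not bear on culture or library variation. Depth was 12393880 and 22433655 counts. With 1 library a line there is no test.

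Genes were named by rule: 13 checks, the 12 farthest calls each way by interval bound, 3 each way and the most abundant in each list, and the 10 farthest each way with the other pairs under 2-fold. Members and the 38 lists were chosen with earlier results of these data known. Alternatives were other scalings (TMM from edgeR 4.0.16 among them), filters, call rules, thinning, non-overlapping genes and, added after seeing the data, removal of the length trend. Where the tables' own coordinates order genes, 1 was added to the start, which they count from 0. Of the described symbols, 15 had been turned into dates. List entries not found by symbol (15) were left out, and some named genes are not reported here.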

Additional observations from a re-analysis of the deposited data

Results flagged for a closer look

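Genes named in the report that were called in the LAPC4 pair and whose intervals lay on the opposite side of no change in both other pairs are given here with their log2 ratios. The difference between pairs was not tested, since each has 1 library a side. Over all described genes 42 were higher here and lower in both other pairs, and 55 were lower here and higher in both.

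Among the genes higher in LAPC4-CR, the ribonucleotide reductase subunit RRM2 had a log2 ratio of 2.03 here, -0.77 in the LNCaP pair and -0.41 in the VCaP pair. The mitotic kinase PBK had 1.34, -0.72 and -0.24. The phosphatase DUSP4 had 1.10, -2.61 and -0.69, but it was not called here with the length trend removed (0.92) or under the scaling by summed protein-coding counts (0.93). The basal keratin KRT14, on 10 and 94 counts, had 2.34, -2.50 and -3.34.

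Among the genes lower in LAPC4-CR, 3 belonged to the ATF4 list. CHAC1 had -2.35, 0.58 and 1.28 in the LAPC4, LNCaP and VCaP pairs, NUPR1 had -1.98, 0.94 and 0.16, and SLC7A11 had -1.71, 0.47 and 0.84. Creatine kinase CKB had -4.07, 0.90 and 0.77, and the retinal reductase DHRS3 had -3.10, 1.32 and 0.22. The receptor FGFR2 had -1.27, 1.48 and 1.27, and the adhesion molecule NCAM1 had -2.45, 0.78 and 1.2. Ferritin heavy chain FTH1 had -1.92, 1.09 and 0.93, and the actin-binding thymosin TMSB4X had -1.64, 6.81 and 1.15. Both have near copies among which reads could be split.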

How the results depend on the processing

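No paired analysis was possible because each line has 1 library, and no library could be left out. The counts of genes called higher (841) and lower (590) stayed within 1.5 times under the other scalings, without the filter on low values, with LAPC4-CR thinned to the depth of LAPC4 and with the length trend removed. They moved to 471 and 270 when genes had to average 5 scaled FPKM, to 194 and 202 when the whole interval had to pass 4-fold, and to 256 and 205 for log2(scaled FPKM + 5) changed by at least 1. They were 313 and 251 over the 4505 described genes whose locus overlaps no other gene, which tests fewer genes. With the ratio itself at 2-fold 1263 genes were higher. The scaling by summed protein-coding counts moved every log2 ratio by -0.18, and that by genes of every class by 0.12, relative to the values reported. These signs of list medians flipped with the scaling: neuroendocrine, cytokine, p53, ERBB, antioxidant, cell death and cancer-testis. The glucocorticoid list's median of -1.18 became 0.0197 with the 5 scaled FPKM minimum. Of the named genes, 90 were called higher and 77 lower, and 84 and 77 remained so under the summed protein-coding scaling, 88 and 76 with the length trend removed. The counts with the other pairs under 2-fold stayed within 1.5 times under every scaling tried.

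Limits: 1 library a line, medium confounded with state, strand and multi-mapping rules not given, and 103 of 193 named genes overlapping another listed gene. Counting intervals leave out culture and library variation. At a mean of 1 scaled FPKM a described gene can rest on as few as 3 counts in all.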

Other observations

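The ratio differed by chromosome. Over all described genes the median log2 ratio was 0.10, with 7.76% called higher and 5.45% lower. Chromosome 8 had the highest median log2 ratio of described genes, 0.35 over 379 genes, with 49 called higher (12.9%) and 24 lower, against medians of 0.12 and -0.06 in the LNCaP and VCaP pairs. Chromosome X had 47 of 367 genes called higher (12.8%) and 10 lower (2.72%), and chromosome 13 had 21 of 184 higher and 4 lower. Chromosome 21 had the lowest median, -0.25 over 117 genes, followed by chromosome 11 at -0.20, where 25 genes were called higher and 53 lower (8.77%), and chromosome 14 at -0.14. The chromosomes above were picked after their values were seen. Others also stood apart from the shares over all genes, such as chromosome 15 (12.3% higher) and chromosome 3 (7.95% lower). These are values of 2 libraries, and copy number was not measured here.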
